A study of Mus musculus with 28 samples.

Results

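Very wide H3K27ac domains of mouse embryonic stem cells are described here. They were chosen by width alone: a domain is a region of the deposited H3K27ac consensus list on chromosomes 1 to 19 that spans 10 kb or more. The rule took 370 of 57327 H3K27ac regions on these chromosomes, and no region elsewhere reached 10 kb (the widest on chromosome X was 9456 bp). Since width selected the members, their widths are given as a description without a test.

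The study profiled E14 cells, a male mouse embryonic stem cell line grown with LIF (a second medium with added inhibitors is described, and which library had which is not stated in the labels), by CUT&RUN, a method that cuts out and sequences the DNA around an antibody bound to its target in nuclei. Its 28 libraries cover 4 targets, which are H3K27ac, H3K122ac, the histone variant H3.3 and no antibody. Each target has 7 libraries: 2 from wildtype cells, 1 from H3f3a_AA_H3f3b_WTWT cells, 1 from H3f3a_WTWT_H3f3b_AA cells, 2 from H3f3a_AA_H3f3b_WTA cells (clone 1 and clone 2) and 1 from H3f3a_WTA_H3f3b_AA cells. H3f3a and H3f3b both encode H3.3, and the series title names the change as H3.3K122A. Apart from the wildtype and the genotype with 2 clones, each genotype is a single library per target. The values used here are the positions of 2 consensus lists, 1 for H3K27ac and 1 for H3.3, which carry no value per library. Mutant and wildtype cells were therefore not compared, and nothing below has a replicate: the 95% intervals are exact (Clopper-Pearson) and describe only the counting of regions or genes.

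Acetylation of lysine 27 on histone H3 is placed by the acetyltransferases p300 and CBP and marks active promoters and enhancers. Long stretches of the mark often cover clusters of enhancers, called super-enhancers, and in embryonic stem cells many of these lie at genes of the pluripotency network. H3.3 is deposited throughout the cell cycle, by the HIRA complex at active genes and enhancers and by ATRX and DAXX at heterochromatin.

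The label of the cells was checked against markers by the presence of any H3K27ac region over the gene. Such a region lay over 10440 of 20665 autosomal protein-coding genes (50.5%), so its presence or absence at a single marker says little. All 7 embryonic stem cell markers carried one (Pou5f1, Sox2, Nanog, Esrrb, Zfp42, Klf4 and Tfcp2l1). None of 4 primitive endoderm (Gata4, Gata6, Sox17, Pdgfra), 3 trophoblast (Cdx2, Elf5, Gata3), 4 feeder fibroblast (Col1a1, Col1a2, Thy1, Postn) or 2 neural markers (Pax6, Sox1) did. In longer lists, 6 of 27 primitive endoderm and trophoblast genes and 3 of 22 fibroblast genes carried a region, which are named with the gene lists.

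Promoter sequences are shown for 6 domains to give the letters behind the base composition and H3.3 values reported further on. They were chosen after the values were seen, from promoters whose start lies in a domain. Each is the 150 bases before a listed start, from RefSeq (GRCm38.p6, the assembly of mm10 coordinates), written 5′ to 3′ on the gene's strand. Capitals mark matches, on either strand, to the GC box GGGCGG, the ETS motif CCGGAAG or the CCAAT box CCAAT. In the first 3 an H3.3 region touched the promoter, and in the last 3 none did.
Fubp3, chr2:31572501-31572650, plus strand: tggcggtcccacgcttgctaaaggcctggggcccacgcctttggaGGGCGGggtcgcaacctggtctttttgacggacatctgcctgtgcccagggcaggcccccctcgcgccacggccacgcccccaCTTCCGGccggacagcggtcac
Glo1, chr17:30612660-30612809, minus strand: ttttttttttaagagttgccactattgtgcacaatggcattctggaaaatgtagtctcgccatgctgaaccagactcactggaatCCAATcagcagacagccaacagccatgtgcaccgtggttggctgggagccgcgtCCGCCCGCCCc
Sema4b, chr7:80186720-80186869, plus strand: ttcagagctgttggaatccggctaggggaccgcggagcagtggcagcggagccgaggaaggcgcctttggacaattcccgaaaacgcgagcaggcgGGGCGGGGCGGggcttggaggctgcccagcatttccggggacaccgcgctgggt
Mtf2, chr5:108065524-108065673, plus strand: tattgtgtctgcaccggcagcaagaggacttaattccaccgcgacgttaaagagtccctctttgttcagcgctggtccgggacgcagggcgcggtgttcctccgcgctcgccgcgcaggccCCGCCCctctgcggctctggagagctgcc
Hic2, chr16:17233437-17233586, plus strand: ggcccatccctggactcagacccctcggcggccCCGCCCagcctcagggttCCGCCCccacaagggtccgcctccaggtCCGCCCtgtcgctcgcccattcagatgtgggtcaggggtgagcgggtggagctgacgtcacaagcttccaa
Tdgf1, chr9:110946159-110946308, minus strand: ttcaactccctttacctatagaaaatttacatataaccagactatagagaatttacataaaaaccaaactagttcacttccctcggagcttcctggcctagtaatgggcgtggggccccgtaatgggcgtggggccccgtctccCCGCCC
All 6 windows held at least 1 GC box, with 3 in Hic2 and 2 each in Glo1 and Sema4b. G+C content ran from 49.3% in Tdgf1 to 70.7% in Fubp3. The number of CG pairs ran from 6 in Glo1 and Tdgf1 to 16 in Mtf2. Fubp3 encodes a single-stranded nucleic acid-binding protein, Glo1 the enzyme glyoxalase 1, Sema4b a semaphorin, Mtf2 a Polycomb-like protein, Hic2 a zinc-finger repressor and Tdgf1 the Nodal co-receptor Cripto.

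A domain over the miR-290 microRNA cluster holds a further set of sequences. This cluster is highly expressed in embryonic stem cells, and its microRNAs promote the rapid cell cycle of these cells. The domain spans 22757 bp at chr7:3198570-3221326 (mm10) and holds 9 microRNA genes and 17 mature sequences of the RefSeq table. The seed, bases 2 to 8, is what a microRNA pairs with in its targets, and is in capitals below. These 5 have the letters AAGUGC at bases 2 to 7.
miR-290a-3p: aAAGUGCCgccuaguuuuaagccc
miR-291a-3p: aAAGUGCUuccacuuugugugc
miR-291b-3p: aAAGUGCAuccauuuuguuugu
miR-294-3p: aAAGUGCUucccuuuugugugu
miR-295-3p: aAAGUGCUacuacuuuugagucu
miR-291a-3p, miR-294-3p and miR-295-3p share the whole seed AAGUGCU. Most of this domain lies outside the hairpins, since the first begins 20056 bp from its left end. It touched 3 H3.3 regions, of 263, 840 and 347 bp, centred at 13%, 36.2% and 96.4% of the way from the left end, and the third of these touched the hairpins of Mir293 and Mir294. Of the 29 genes found of a list of pluripotency microRNAs, 5 were touched by a domain, all of them by this one. Of 1136 microRNA genes on chromosomes 1 to 19, 18 were touched by 10 domains. The other 9 were single genes in 9 domains, among them Mir135b and Mir7003, the latter in the domain of Mybl2.

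Domain widths ran from 10012 to 45403 bp, with a median of 12734 bp and quartiles of 11115 and 15829 bp. The median of all H3K27ac regions on these chromosomes was 812 bp. The domains were 0.645% of the regions and 6.88% of their covered length, 5.3 of 77 Mb. Most were near the lower limit: 264 were under 15 kb, 62 between 15 and 20 kb, 40 between 20 and 30 kb, and 4 above 30 kb. Just inside the limit were domains at Maco1 (10012 bp), at the replication helicase gene Mcm5 (10015 bp) and outside genes near Zfp202 (10021 bp). Just outside were regions at Ssbp3 (9983 bp), Ccnb1ip1 (9982 bp) and Ctnnb1 with Ulk4 (9979 bp). The distribution has no gap at 10 kb, so the limit separates neighbours that hardly differ.

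**Figure D1:**
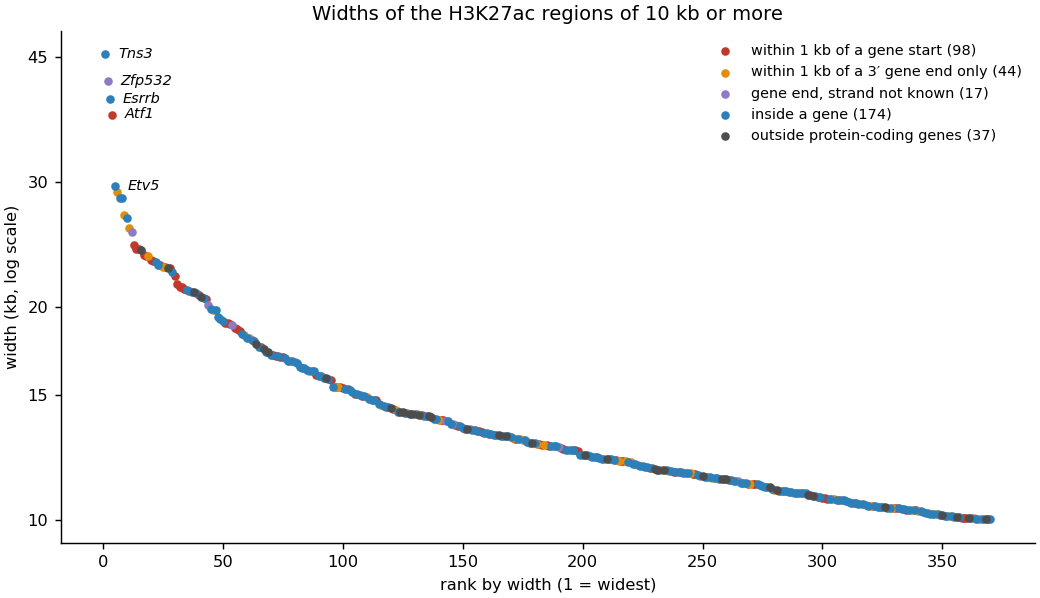
Width of each of the 370 domains (kb, log scale) against its rank, coloured by position relative to protein-coding genes. The 4 domains above 30 kb stand apart from the rest at Tns3, Zfp532, Esrrb and Atf1, and the curve runs without a step down to 10012 bp.

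The widest domain lay wholly inside Tns3, which encodes a focal adhesion protein, at chr11:8552240-8597642, and covered 19.5% of the gene. Zfp532, a zinc-finger gene, followed with 41598 bp. Esrrb, which encodes an orphan nuclear receptor that sustains naive pluripotency, had 39271 bp at chr12:86470160-86509430, also inside the gene. Atf1, a transcription factor of the CREB family, had 37354 bp at chr15:100228510-100265863. That domain began just downstream of the listed start and ran past the end of the gene.

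After these came a step down to Etv5, an ETS factor downstream of FGF signalling, with 29593 bp at chr16:22389245-22418837. N4bp1 (29024 bp), Etl4 (28509 bp), the actin regulator gene Enah (28439 bp) and a domain across the neighbouring ends of the trafficking gene Rab1a and the centrosomal gene Cep68 (26987 bp) were also among the widest. Slc2a1, the gene of a glucose transporter, had 25860 bp, and Bicral, a subunit gene of a BAF remodelling complex, 25505 bp. The cap-binding protein gene Eif4e2 (24444 bp), the homeobox repressor gene Tgif1 (24135 bp) and Fubp3 (24124 bp) were also among the 15 widest.

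**Figure D2:**
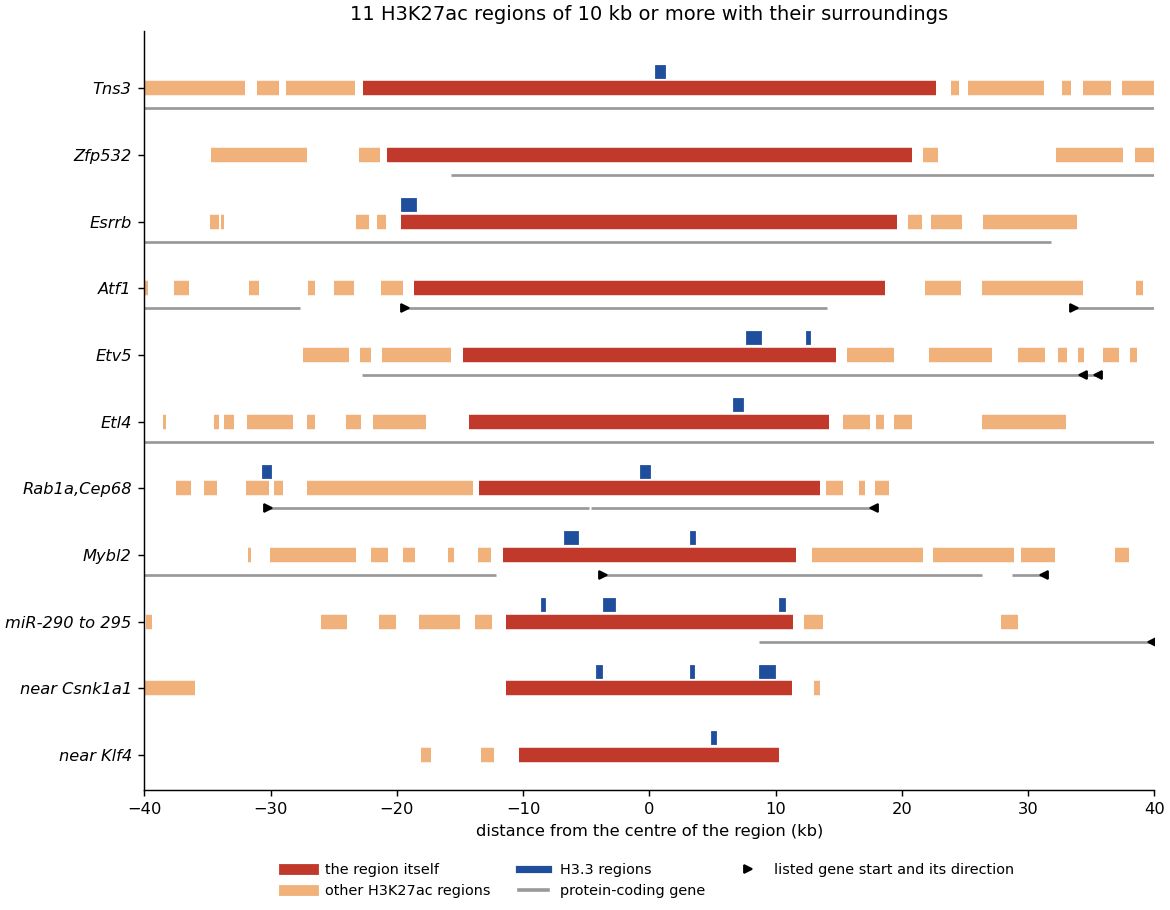
Map of 11 domains, chosen after the values were seen, with distance in kb from the centre of each; red bars are the domains, orange bars other H3K27ac regions, blue boxes H3.3 regions, grey lines protein-coding genes and arrowheads listed starts with their direction (none are listed for chromosome 18, where the Zfp532 and Csnk1a1 rows lie). Zfp532 and Atf1 have no H3.3 region in the domain, the other 9 have between 1 and 3 that take up a small part of it, and each of the 11 has at least 1 other H3K27ac region within 40 kb of its centre.

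Domains rarely stood alone. The median gap from a domain to the nearest other H3K27ac region was 892 bp, against 2302 bp for regions under 1 kb and 1014 bp for those of 5 to 10 kb. Another region lay within 1 kb of 222 domains (60%) and within 500 bp of 74 (20%). For regions of 5 to 10 kb these shares were 48.9% and 15.5%. Within 50 kb on either side of a domain there was a median of 15 other H3K27ac regions. The median was 14 for regions of 5 to 10 kb and 9 for those under 1 kb. Other regions covered a median of 30.6% of that sequence around domains, against 25.5% for regions of 5 to 10 kb and 10.8% for those under 1 kb. For 73 domains the next domain on the chromosome began within 50 kb.

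Several genes held more than 1 domain. Of the 328 protein-coding genes touched, 289 had 1 domain, 29 had 2, 6 had 3 and 4 had more. Tns3 had 5, of 13258, 10944, 14568, 45403 and 13871 bp, which sum to 98044 bp and 42.1% of the gene. Ctbp2, a corepressor gene, also had 5, summing to 77796 bp or 56.8% of the gene. The histone acetyltransferase gene Kat6b was touched by 4, of which the widest (21172 bp) overlapped the gene by only 26 bp. Actn4, an actin crosslinker gene, had 3 domains over 66.5% of its length, the nearest pair 682 bp apart. In Usp48, a deubiquitinase gene, 2 domains of 10907 and 12092 bp were separated by 16 bp. The number of domains in a gene therefore moves with where the deposited list breaks a stretch of the mark.

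The 328 genes were 1.59% of the 20665 protein-coding genes on chromosomes 1 to 19. This share depended on gene length: it was 0.436% of genes under 10 kb, 1.6% at 10 to 30 kb, 2.89% at 30 to 100 kb and 2.46% over 100 kb. A domain touched no protein-coding gene in 41 cases, 1 gene in 277, 2 in 50 and 3 in 2. The 2 with 3 genes lay at Vps35l, Knop1 and Iqck (15283 bp) and at Csad, Zfp740 and Itgb7 (13024 bp). Some of these overlaps were short, with 206 bp of Vps35l and 688 bp of Csad.

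By position, 174 domains (47%, 41.8 to 52.3%) lay inside a gene, away from its ends. Another 98 (26.5%, 22.1 to 31.3%) came within 1 kb of a listed gene start, 44 (11.9%) within 1 kb of a 3′ gene end only, 17 (4.59%) near a gene end of unknown strand, and 37 (10%) lay outside genes. Among regions of 5 to 10 kb, 17.9% (16.1 to 19.9%) were at a start, 55.5% inside a gene and 14% outside genes. Among regions under 1 kb, 9.67% were at a start. A wider region has more sequence with which to reach a start, and that part of the difference was not tested. Starts are listed for 16457 of the 20665 genes and for none on chromosome 18, so the shares at a start are low estimates.

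Domains that held listed starts of a single gene extended mostly downstream, measured from the most upstream listed start in the domain. For 60 such domains the median length was 3008 bp upstream of the start and 9732 bp downstream of it, and a median of 75.7% of the domain lay downstream. In 44 of the 60 (73.3%) the larger part was downstream. Among 180 regions of 5 to 10 kb with 1 gene start, the median was 61.1% and 112 (62.2%) lay mostly downstream. Eif4e2 and Tgif1 were near one extreme, with 95.6% and 98.5% of the domain downstream. Downstream is not the same as inside the gene: in 9 of the 60 the downstream part was longer than the gene, and at Tgif1 it measured 23776 bp against a gene of 9328 bp. Nor is upstream the same as outside it, since a listed start can be internal. The Ncor1 domain lay wholly inside the gene, with 13250 bp counted as upstream.

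Of the domains inside genes, 137 had a gene with a listed start. Their centres lay a median of 43.1% of the way along the gene, with quartiles of 27% and 62%. For regions under 1 kb inside genes the median was 51.1%, with quartiles of 27.2% and 74.1%. The lower quartiles were close, and the upper quartile of the domains lay earlier in the gene. A region that must lie inside a gene cannot be centred near its ends when it is wide, and the part of this limit was not tested.

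The 37 domains outside protein-coding genes included several near regulators of pluripotency, for which distances are to the nearest protein-coding gene. One of 20605 bp at chr4:55462459-55483063 had Klf4, a Krüppel-like reprogramming factor, as its nearest gene at 44074 bp. Klf4 itself carried no H3K27ac region wider than 390 bp. A domain of 13994 bp lay 17582 bp from Klf5, and one of 11760 bp lay 13566 bp from Zfp42, which encodes the naive marker REX1. A pair of domains of 17406 and 12184 bp lay in the non-coding gene Pvt1, at 92180 and 78592 bp from Myc. Domains also lay near Zfp281 (17703 bp), Sp1 (14363 bp), Klf9 (13157 bp), the Polycomb genes Jarid2 (11427 and 10804 bp) and Eed (11029 bp), and over the non-coding genes Lncenc1 (13447 bp) and Platr10 (11404 bp). The widest, 24051 bp, lay 4157 bp from the deubiquitinase gene Usp7. These were picked after their values were seen, and no contact with the named genes was measured.

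H3.3 regions come from a separate list that the width rule did not use. Of the 370 domains, 113 touched an H3.3 region by 1 bp or more (30.5%, 25.9 to 35.5%), against 4.39% of all H3K27ac regions on these chromosomes. The share was 2.05% for regions under 1 kb, 5.55% at 1 to 2.5 kb, 10.3% at 2.5 to 5 kb and 15.9% (14.2 to 17.8%) at 5 to 10 kb. Per length of sequence the order was lost: H3.3 regions covered 10.5, 15.4, 16.5, 15.8 and 16.1 bp per kb in the same 5 classes, from narrowest to widest. In 1 kb tiles, 4.07% of 5129 tiles in domains touched an H3.3 region, against 4.32%, 4.91% and 4.54% in the next 3 narrower classes. The number of H3.3 regions per Mb went from 39.1 under 1 kb through 35.9, 31.8 and 27 to 25.8 in domains. That count includes H3.3 regions that only reach over an edge, which weigh most in narrow regions. A fall with width is thus built into it, and nothing is concluded from it. The share of regions with H3.3 thus rose with width, while neither the H3.3 length per kb nor the share of tiles was highest in the domains. Which libraries entered each list is not given in the sources used here, and the nuclease fusion and stop buffer differed between the targets, so the 2 lists need not be equally sensitive.

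**Figure D3:**
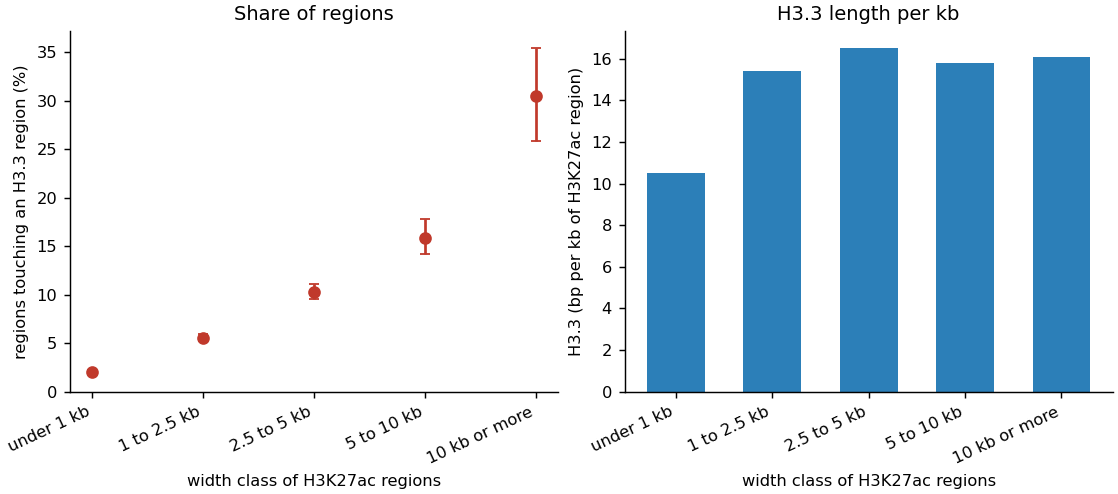
Left, share of H3K27ac regions in each width class that touch an H3.3 region (%), with exact 95% intervals over regions; right, length of H3.3 regions per kb of H3K27ac region (bp per kb). The share climbs from 2.05% to 30.5% with width, while the length per kb stays between 15.4 and 16.5 from 1 kb upwards.

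The domains touched 137 H3.3 regions, 133 of them lying whole inside a domain. A single H3.3 region was found in 93 domains, 2 in 16 domains, 3 in 4 domains and none in 257. The H3.3 regions had a median width of 496 bp and reached 2052 bp, at Dido1 and Gid8. Among domains with H3.3, it covered a median of 3.95% of the domain and at most 17.3%. H3.3 therefore marked short stretches within these domains, and its regions were short elsewhere too. Their median width was 476 bp where they touched no H3K27ac region and 432 bp where they touched only narrower ones. Domains of 20 kb or more touched H3.3 in 25 of 44 cases (56.8%, 41 to 71.7%), and those under 15 kb in 68 of 264 (25.8%, 20.6 to 31.5%).

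The 4 domains with 3 H3.3 regions lay at Frmd8 and the long non-coding RNA gene Neat1 (12799 bp wide, 2080 bp of H3.3), outside genes nearest to the kinase gene Csnk1a1 and over the non-coding gene Bvht (22669 bp, 1770 bp of H3.3), at Gm38457 and the Krüppel-like factor gene Klf3 (16996 bp, 1727 bp of H3.3), and at the miR-290 cluster (22757 bp, 1450 bp of H3.3). Of the domains with 2, the most H3.3 was at the zinc-finger gene Patz1 (2241 bp) and at B3gnt7 (1916 bp), a glycosyltransferase gene. Domains near Stoml1 (1897 bp) and Cbfa2t2 (1548 bp), at Dppa5a with Ooep (1499 bp), and at Etv5 (1371 bp) followed. In the Esrrb domain a single H3.3 region of 1110 bp lay at the left end, centred 1.49% of the way along. In Tns3 one of 741 bp lay near the middle, at 52%. The H3.3 regions kept to no fixed place: 1 kb tiles touched H3.3 in 3.51% of cases in the outermost kb and in 4.41% more than 5 kb from either end, with overlapping intervals (2.31 to 5.11% and 3.4 to 5.61%).

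Position relative to genes went with larger differences. Within domains, 54 of 267 tiles within 1 kb of a start touched H3.3 (20.2%, 15.6 to 25.5%), 80 of 891 outside genes (8.98%, 7.18 to 11.1%) and 69 of 3902 inside genes (1.77%, 1.38 to 2.23%). These 3 intervals do not overlap, but they treat tiles as independent. Tiles come from shared domains, and 1 H3.3 region can touch several: the 209 touched tiles came from 137 H3.3 regions. A further 69 tiles lay at gene ends whose strand is not known, and 6 of them touched H3.3. Whole domains showed the same order only in part: 24 of 37 outside genes (64.9%) and 52 of 98 at a start (53.1%) touched H3.3, against 22 of 174 inside genes (12.6%). Across classes from 1 to 2.5 kb up to the domains, tiles inside genes touched H3.3 in 0.764%, 1.1%, 1.48% and 1.77% of cases, and tiles outside genes in 3.77%, 6.75%, 8.96% and 8.98%. Tiles near a start showed no such climb (20.9%, 23.7%, 18.3% and 20.2%). Only 5.21% of the tiles of domains were near a start, against 13.6% in the 1 to 2.5 kb class. On the chromosomes with listed starts, 36 of 131 H3.3 regions in domains (27.5%, 20 to 36%) lay within 1 kb of one. The share was 30.5% in regions of 5 to 10 kb, 65.1% in regions under 1 kb and 47.4% among the 2705 H3.3 regions there that touched no H3K27ac region.

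**Figure D4:**
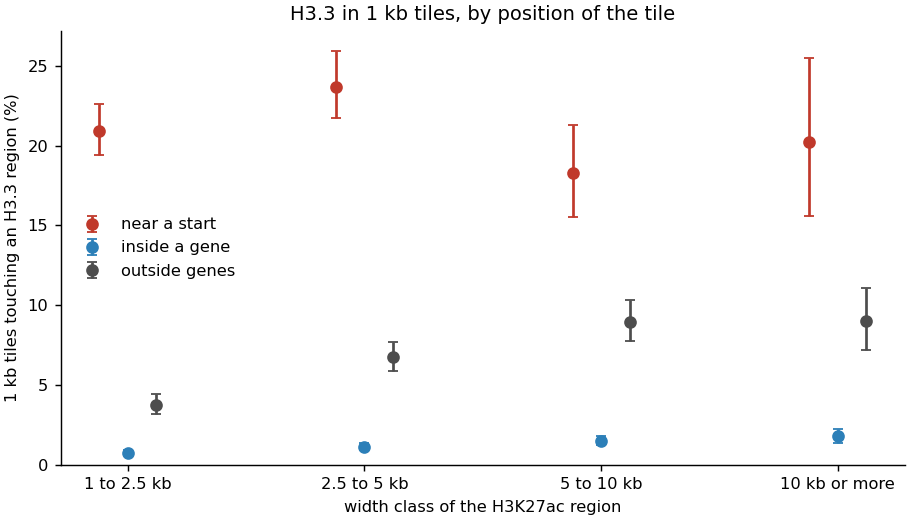
Share of 1 kb tiles of H3K27ac regions that touch an H3.3 region (%), by width class and by position of the tile, with exact 95% intervals over tiles, which are not independent. Gene ends of unknown strand are left out; in the domains the shares are 20.2% near a start, 8.98% outside genes and 1.77% inside genes.

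The table lists 108 starts of 84 genes whose start lies in a domain. Over 300-base windows, from 250 bases before to 50 after the start, the median G+C content was 62%, against 57.7% for starts in regions of 5 to 10 kb, 59.7% in both classes from 1 to 5 kb and 57% for all 20085 starts. A ratio of observed to expected CpG of 0.6 or more was found in 68.5% of them, in 66.7% of the 5 to 10 kb class, in 76.4% at 2.5 to 5 kb, in 73.7% at 1 to 2.5 kb and in 48.9% of all. An H3.3 region touched 33 of the 108 windows (30.6%), 22.5% in the 5 to 10 kb class, 33.8% at 2.5 to 5 kb, 24.3% at 1 to 2.5 kb and 11.8% of all. Starts in H3K27ac regions of 1 kb or more thus had more CpG and H3.3 than all starts, and those in domains were the highest of these classes in neither.

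Short motifs were searched on both strands of the same windows. The GC box GGGCGG was in 62% of windows in domains and 47% of all, the ETS motif CCGGAAG in 22.2% and 11.9%, and AAGATGGC, the core of the YY1 motif, in 9.26% and 3.06%. The TATA box TATAAA was in 6.48% and 12.7%, and CCAAT in 26.9% and 38.1%. In narrower H3K27ac regions, at 5 to 10, 2.5 to 5 and 1 to 2.5 kb, the GC box was in 53.6%, 63.5% and 59.7%, the ETS motif in 17%, 25.8% and 27.9%, and the YY1 core in 7.52%, 7.9% and 5.98%. CCAAT was in 36.3%, 41.2% and 45.4% there, and the TATA box in 10.5%, 6.19% and 5.34%. The letters TCAAGGTCA of the ESRRB motif and the octamer ATGCAAAT were in 0 of the 108 windows, which with 108 windows allows up to 3.36%, and in 0.339% and 1.67% of all. A match is a run of letters and was not tested for binding. Windows of 1 gene with several starts overlap.

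Gene lists were read against the background of 1.59% of protein-coding genes. That background includes genes without the mark, since 50.5% of protein-coding genes carried any H3K27ac region. The share was 93.8% in the naive and core pluripotency list, 100% among RNA-binding proteins and 66.7% in Polycomb complexes. A comparison limited to genes with any H3K27ac region was not made. The 32 naive and core pluripotency genes had a median length of 11146 bp, against 17491 bp for all protein-coding genes. Of these 32, 10 were touched by a domain (31.2%, 16.1 to 50%). The part of gene length in this share was not tested: the touched genes ran from 1148 bp (Dppa5a) to 160512 bp (Esrrb). They were Esrrb, the cell-cycle regulator Mybl2 (23199 bp), the 5-methylcytosine oxidase gene Tet2 (22394 bp), the transcription factor gene Tfcp2l1 (17036 bp), Fbxo15 (16704 bp), Rif1 (16239 bp), the threonine dehydrogenase gene Tdh (12552 bp), Dppa5a (12499 bp), Klf5 (10499 bp) and Tdgf1 (10315 bp). The overlap was short for Dppa5a (446 bp) and Tdgf1 (237 bp), whose domains lie mostly outside the gene. Among listed starts, those of Mybl2 and Tdgf1 were inside the domain and those of the other 8 genes were not or are not listed. Several central genes had no domain. The widest H3K27ac region was 8921 bp at Pou5f1, 4749 bp at Nr5a2, 4062 bp at Nanog, 2081 bp at Sox2 and 1004 bp at Tbx3. Extending genes by 10 kb on each side added 1 gene, Klf2, whose neighbouring domain measured 10153 bp.

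Among the signalling lists, the FGF-ERK pathway, which drives exit from naive pluripotency, had 5 of 32 (15.6%, 5.28 to 32.8%): Etv5, the feedback inhibitor Il17rd (14947 bp), the kinase genes Rps6ka1 (12101 bp) and Map2k1 (11917 bp), and the inhibitor Spred2 (10636 bp). The count was 2 with the width limit raised by 25%, and the median gene length of this list was 26254 bp. LIF-STAT3, the pathway that the medium stimulates, had 1 of 18, Tfcp2l1. Stat3 itself had no region wider than 2641 bp. Canonical Wnt had 1 of 30, the β-catenin gene Ctnnb1 (11148 bp). Nodal, BMP and SMAD genes had 2 of 29, the SMAD corepressor Ski (11769 bp) and Tdgf1. The Hippo list had 1 of 20, Tead1 (11217 bp), and formative pluripotency 1 of 21, Etv5. The intervals of these lists other than FGF-ERK include 1.59%.

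Genes of adhesion and the actin cytoskeleton had 7 of 31 (22.6%, 9.59 to 41.1%), led by Tns3, Enah, Actn4 (22867 bp), the myosin gene Myh9 (19227 bp) and Lasp1 (11901 bp). Cdh1, the E-cadherin gene, had 11743 bp. This list is of long genes, with a median of 71882 bp. RNA-binding proteins, with a median length of 89982 bp, had 6 of 32 (18.8%, 7.21 to 36.4%), among them Trim71 (22872 bp), a stem cell RNA-binding ligase and let-7 target, Msi2 (15133 bp), Igf2bp1 (11510 bp) and Dgcr8 (11259 bp). Glycolysis and one-carbon genes had 5 of 26 (19.2%, 6.55 to 39.4%): Slc2a1, Slc2a3 (13389 bp), Tdh, Gapdh (10745 bp) and Mthfd1 (10403 bp). The median gene length of the glycolysis and one-carbon list was 22829 bp. With the limit raised by 25%, the adhesion, RNA-binding and glycolysis lists had 4, 3 and 3.

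Chromatin regulators were also touched. Acetyltransferases, BET readers and Mediator had 4 of 25 (16%, 4.54 to 36.1%), which were Kat6b (21172 bp at the edge of the gene and at most 13076 bp inside it), Ncoa3 (12281 bp), Ncoa1 (11000 bp) and Kat7 (10321 bp). Ep300 and Crebbp, the genes of the enzymes p300 and CBP, had no region wider than 4960 and 2776 bp. The count for this list was 9 with the limit lowered by 20% and 1 with it raised by 25%. Corepressors had 4 of 25, Gatad2a (20882 bp), Ncor1 (15348 bp), Mta3 (13546 bp) and the demethylase gene Kdm1a (10711 bp). Polycomb complexes had 4 of 30 (13.3%, 3.76 to 30.7%), Mtf2 (23285 bp), Phc1 (16776 bp), Kdm2b (12727 bp) and Eed (12055 bp). The median gene length was 72080 bp in the acetyltransferase list, 51842 bp among corepressors and 33472 bp in Polycomb complexes, against 17491 bp for all protein-coding genes. The part of length was not tested. BAF complexes had 2 of 26, Bicral and Arid1a (11573 bp), and DNA methylation 2 of 17, Tet2 and Dnmt1 (11662 bp), with intervals that included the background. None of the 14 H3.3 genes and chaperones was touched (0%, 0 to 23.2%). H3f3a, a gene altered in the mutants, had no H3K27ac region wider than 875 bp, and H3f3b had none.

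The intervals of the remaining lists included the background. MYC and cell cycle genes had 2 of 38, Max (10286 bp) and Mcm5, and housekeeping genes 1 of 19, Gapdh. Ribosomal protein genes had 1 of 81, Rps15a (20529 bp), although 77 carried some H3K27ac region and 7 were touched with the limit lowered by 20%. None of the 52 listed lineage regulators was touched (0%, up to 6.85%), and 3 of them, Pax2, Pax8 and Hnf4a, had any H3K27ac region, of at most 1137 bp. The list is not complete: a domain of 18263 bp overlapped the homeobox gene Six4, which is outside it, by 1358 bp. No primitive endoderm or trophoblast marker (0 of 27, up to 12.8%) and no fibroblast or feeder marker (0 of 22, up to 15.4%) was touched. Narrower H3K27ac regions lay over Cubn, Lama1, Lamb1, Lamc1, Sparc and Hnf4a of the former (at most 4209 bp, at Lamc1) and over Fn1, Tagln and Col5a1 of the latter (at most 7476 bp, at the fibronectin gene Fn1). Lists share genes and domains can span 2 genes, so these counts are not independent.

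**Figure D5:**
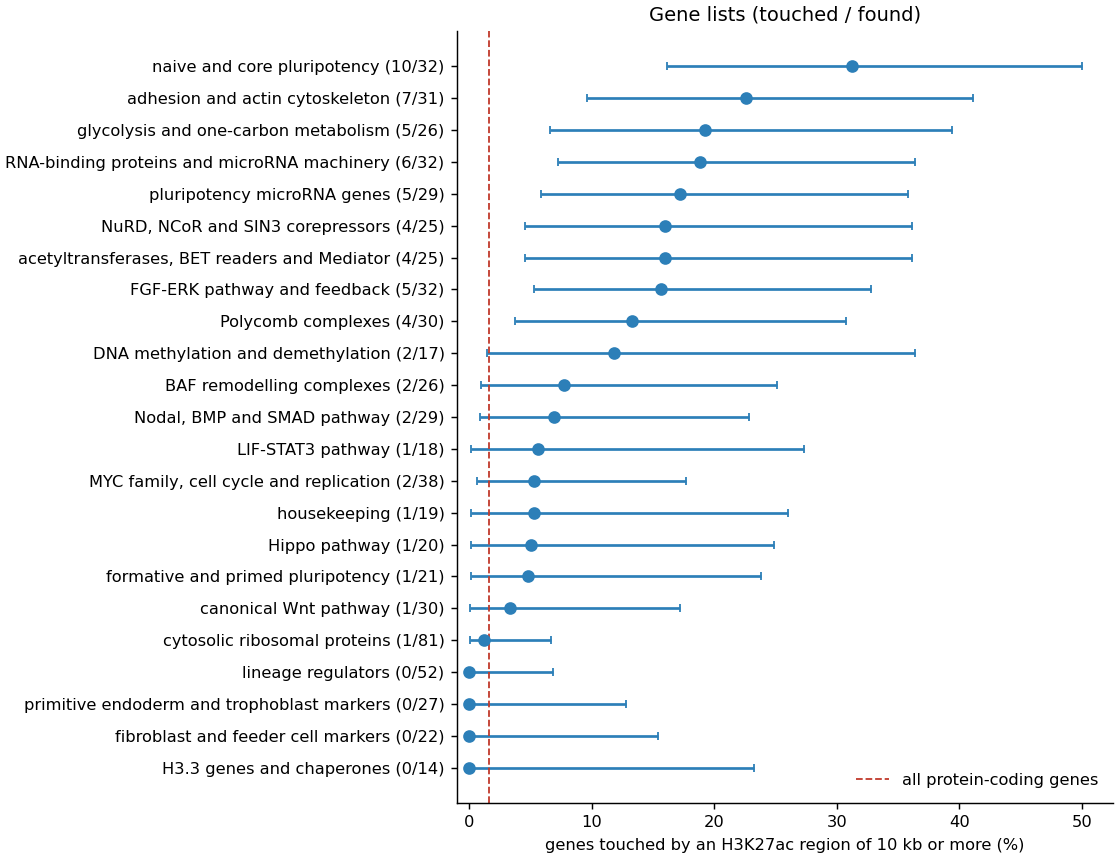
Share of each gene list touched by a domain (%), with exact 95% intervals over genes and, as a dashed line, the 1.59% of all protein-coding genes; counts touched and found are in the labels. Naive and core pluripotency stands highest at 31.2%, and 4 lists have no gene touched.

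Domains were found on every autosome, from 9 on chromosome 10 to 39 on chromosome 11. Their share of the regions of a chromosome ran from 0.312% (0.143 to 0.592%) on chromosome 10 to 0.872% (0.526 to 1.36%) on chromosome 14, and these 2 intervals overlap. That of chromosome 4 (0.853%, 0.598 to 1.18%) narrowly missed the interval of chromosome 10. This pair was picked after the values were seen. The intervals also treat domains as independent, although 73 had the next domain within 50 kb.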

How the data were processed

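Libraries were grouped by target and genotype from their titles. Bowtie2, SAMtools, deepTools and MACS2 and the build mm10 are named, without versions or roles, per the submitters' processing notes. Per the labels' protocols, H3K27ac used a protein A and H3.3 a protein A/G fusion of the nuclease, with different stop buffers. How libraries were combined into a consensus, which of them entered and with what threshold: that is not given in the sources used here. Each deposited file holds positions. Per region, the authors deposited a chromosome with its start and end, with no header, score or value per library, so depth is unknown. Columns of other samples numbered 0.

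Coordinates are given 1-based, so each start is 1 above that of the list. Genes and starts came from RefSeq tables (GRCm38.p6), with starts for 16457 of 20665 autosomal protein-coding genes and none on chromosome 18. A region touched another by 1 bp or more, and gene ends had a window of 1 kb. Tiles were whole 1 kb pieces of regions. A tile was near a start if it came within 1 kb of a listed start or of the 5′ end of a gene of known strand. Overlaps were computed in Python 3.11.15 with pandas 2.3.3, NumPy 2.4.6 and SciPy 1.17.1, and were checked against direct comparison in 20 simulated sets. No test was run, because the lists hold no samples.

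The domains and gene lists were chosen with earlier results of these data known. Genes were named by a rule: those of the 15 widest domains, of the 10 with the most H3.3 regions, of those with the most genes (50 domains tie at 2, so only the 2 with 3 are named), of the 3 regions on each side of the width limit, up to 5 per list, widest first, and Pou5f1, Sox2, Nanog, Esrrb, Klf4, Klf5, Tfcp2l1, Nr5a2, Tbx3, H3f3a and H3f3b. A gene that the rule takes is not reported here. Other names, the tiles by position, the reach from starts, the place within genes and the genes with several domains were chosen after the values were seen. Of the typed names, Msn, Pgk1 and Mir292a were not matched on chromosomes 1 to 19. Alternatives varied the width limit, joining of regions, the overlap, the window at gene ends and the gene set.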

Additional observations from a re-analysis of the deposited data

How the results depend on the processing

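The set of domains depends on the width limit and on how regions are joined. There were 370 domains, 651 with the limit lowered by 20% and 197 with it raised by 25%, and joining regions closer than 1000 bp first gave 758 (430 at 500 bp). The genes touched were 515 with the lower and 184 with the higher limit, against 328. The share of domains touching H3.3 fell to 18.9% when only the wider 50% of H3.3 regions were kept, which removes regions by construction. It was 26% and 34% at the lower and higher limit. H3.3 per kb of domain ran from 12.7 to 16.2 bp, domains at a start from 84 to 118, and naive and core pluripotency genes touched from 7 to 13. For the other lists, 17 of 66 counts moved by over 1.5 times. With the lower limit, acetyltransferases, BET readers and Mediator had 9 genes touched, corepressors 7, ribosomal proteins 7, Hippo 3 and housekeeping 2. With the higher limit, adhesion and actin had 4, RNA-binding proteins 3, glycolysis 3, FGF-ERK 2, acetyltransferases 1, BAF complexes 1 and DNA methylation 1, while Wnt, Nodal and BMP, Hippo, MYC and cell cycle, and housekeeping had 0. Fewer or more domains are chosen by construction at these limits. No paired analysis was possible because the lists hold no value per library. Without depth or a background per region, the sensitivity for weak regions is unknown.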
